A study of Homo sapiens with 8 samples.

Results

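Estrogen receptor (ER) binding was examined around 10 genes linked to estrogen, growth and survival in breast cancer: CCND1, MYC, BCL2, IGF1R, IRS1, IGFBP4, RET, ERBB2, EGFR and CXCL12. Whether estrogen raises or lowers each of them, and how each acts on growth, was not tested. The genes were listed by name as estrogen-linked growth and survival genes, with earlier results of these data known. Every deposited ER peak with its summit in the gene body or within 100 kb either side was assigned to the gene. The 10 windows, of 20033 protein-coding gene windows built in the same way, held 34 of the 35944 peaks of the 4 ER libraries. The cells were LY2, a breast cancer line that expresses ER and resists tamoxifen, and the assay was ChIP-seq, the sequencing of DNA immunoprecipitated with an ER antibody. Both conditions were serum depleted for 24 h in medium free of 4-hydroxytamoxifen (4-OHT), transfected for 48 h, and then exposed to β-estradiol (1 µmol/L) during 1 h. In treatment the groups differed only in the siRNA, which targeted CDK12 in siCDK12 (replicates 3 and 4) and no gene in siCtrl (replicates 2 and 3). Replicate 2 was in siCtrl only and replicate 4 in siCDK12 only. A difference between replicates therefore cannot be fully told apart from one due to the siRNA. There was no library without estradiol, so the values say nothing of binding before the hormone was given. All libraries came from a single cell line, and nothing in the labels ties the replicates to separate cultures, so a p-value measures only the spread between these libraries. Peak lists hold no expression, so neither the cell type nor the knockdown could be checked by marker genes.

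Estradiol-bound ER occupies enhancers more often than promoters, binds the palindromic estrogen response element directly or is held on DNA by other factors such as AP-1, and recruits coactivators and Mediator to the genes it serves. CDK12 is a kinase that phosphorylates RNA polymerase II during elongation. The genes examined here cover cell cycle entry and survival (CCND1, MYC, BCL2), the insulin-like growth factor axis (IGF1R, IRS1, IGFBP4), receptor tyrosine kinases (RET, ERBB2, EGFR) and a secreted chemokine (CXCL12).

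The sequences around selected sites are shown from the GRCh38/hg38 reference, plus strand, centred on the peak summit. Only 2 places in the 10 windows carried a peak in more than 1 library, 1 in IGFBP4 intron 1 and 1 upstream of RET. A second site in the IGFBP4 window is shown because it held the only other estrogen response element, and the strongest EGFR site, chosen after its values were seen, is shown as the strongest peak found in 1 library only. In the IGFBP4 sequences the capitals mark the estrogen response element (consensus GGTCANNNTGACC, both strands, at most 1 mismatch in its 10 fixed bases). In the RET sequence they mark an AP-1 word (TGACTCA or TGAGTCA) and in the EGFR sequence a forkhead word (TGTTTAC or TATTTAC), both searched on both strands.
IGFBP4 intron 1, chr17:40448789-40448909: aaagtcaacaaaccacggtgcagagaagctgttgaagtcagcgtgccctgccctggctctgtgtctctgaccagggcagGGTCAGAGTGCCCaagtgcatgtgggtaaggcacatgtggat
IGFBP4 window, in CCR7 exon 3, chr17:40555603-40555723: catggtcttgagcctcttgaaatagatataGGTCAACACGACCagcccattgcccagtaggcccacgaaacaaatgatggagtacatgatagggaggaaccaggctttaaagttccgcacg
RET upstream, chr10:43026511-43026711: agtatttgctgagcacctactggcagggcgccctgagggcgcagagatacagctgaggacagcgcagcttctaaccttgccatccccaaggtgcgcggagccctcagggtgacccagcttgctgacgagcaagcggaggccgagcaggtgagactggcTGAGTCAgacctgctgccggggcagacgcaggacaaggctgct
EGFR downstream, chr7:55234825-55235025: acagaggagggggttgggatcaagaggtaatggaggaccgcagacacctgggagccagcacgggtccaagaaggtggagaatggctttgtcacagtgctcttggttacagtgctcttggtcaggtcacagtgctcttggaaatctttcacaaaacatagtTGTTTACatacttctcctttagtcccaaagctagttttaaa
The element of IGFBP4 intron 1 differed from the consensus by A11C and that of the second site by T9C (the consensus base, the position counted from the first base of the element, and the base of the reference).

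The numbers of listed peaks were 15149 in siCtrl replicate 2, 6913 in siCtrl replicate 3, 6653 in siCDK12 replicate 3 and 7229 in siCDK12 replicate 4. A peak's fold is the fragment pileup at its summit over the local background, and its significance is given as the −log10 of the q-value, where a q-value of 0.05 corresponds to 1.30. The share of peaks with a q-value higher than 0.05 was 20.4% to 28.0%, depending on the library. Peaks as deposited were used, and those past 0.05 were marked as such. The lists give no read numbers. The background pileup solved from them per kb of assumed fragment was 7.19 to 7.59 over the 4 libraries. None of these values is normalized between libraries. A place absent from a list is described as not listed, which is not a measurement of no binding. In a bulk assay, fewer cells with ER at a site and less ER per cell cannot be told apart.

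ER peaks around the 10 genes were fewer in siCDK12 than in siCtrl. The windows held 15 peaks in siCtrl replicate 2, 10 in siCtrl replicate 3, 6 in siCDK12 replicate 3 and 3 in siCDK12 replicate 4, and the groups did not overlap. The mean was 12.5 ± 3.54 in siCtrl and 4.5 ± 2.12 in siCDK12 (SD, n = 2 libraries each), a ratio of 0.36. A two-sided exact permutation test gave p = 0.333, the smallest that 6 assignments of 2 libraries against 2 allow, so this design cannot reach 0.05. Over all peaks the same ratio was 0.629 (two-sided exact permutation p = 0.667). The genes' share of each list was 0.099% and 0.145% for the siCtrl libraries against 0.0902% and 0.0415% for siCDK12, a ratio of mean shares of 0.54 (two-sided exact permutation p = 0.333). The difference in number was therefore in the direction of the mean of the whole lists. The lists themselves overlapped between the groups, with 6913 peaks in siCtrl replicate 3 and 7229 in siCDK12 replicate 4. The genes' share did not overlap, but the closest values were 0.099% in siCtrl replicate 2 and 0.0902% in siCDK12 replicate 3. With an equal number of peaks per library, 6653, the windows held 7, 10, 6 and 3 peaks in the same order. The ratio was then 0.529.

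Of the 34 peaks, 24 had a q-value below 0.05, split as 10, 8, 3 and 3 over the libraries in the same order. The windows together cover 2.92 Mb and held 11.6 peaks per Mb over the 4 lists, and the genome held 11.6. At least 1 peak was found in 7 of the 10 windows, and 74.4% of all protein-coding gene windows held one. The median window held 3 peaks for these genes and 2 for all protein-coding genes. By library, in the same order, the windows held 5.13, 3.42, 2.05 and 1.03 peaks per Mb and the genome 4.89, 2.23, 2.15 and 2.33. Pooled over the 4 lists, these estrogen-linked genes were thus neither dense nor empty of ER peaks as a group. MYC alone supplied 10 of the 34 peaks, and the genes differed widely among themselves, as the plot of peaks by gene shows.

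**Figure D1:**
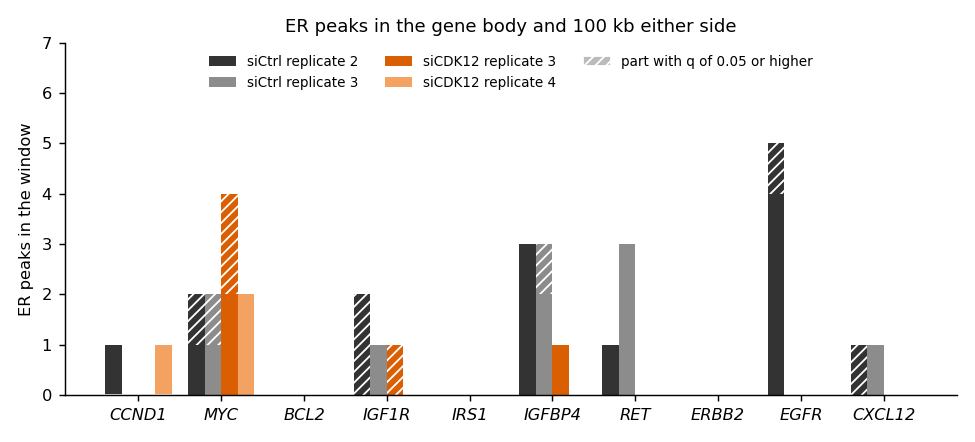
Number of ER peaks in each window (y axis) for each gene (x axis), with 1 bar per library and the hatched part of a bar for peaks with a q-value of 0.05 or higher. MYC had peaks in every library, the 5 EGFR peaks were all in siCtrl replicate 2, RET and CXCL12 had peaks only in siCtrl, and BCL2, IRS1 and ERBB2 had none.

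The 34 peaks fell into 31 sites, a site being the union of peaks that overlap by at least 1 bp. Of these, 29 had a peak in 1 library only (93.5%), and over the genome 32134 of 33821 sites did (95%). Among the 29, 13 were in siCtrl replicate 2 (44.8%, against 43.1% of all such sites), 8 in siCtrl replicate 3 (27.6% against 18.2%), 5 in siCDK12 replicate 3 (17.2% against 18.4%) and 3 in siCDK12 replicate 4 (10.3% against 20.4%). Most of the peaks near these genes thus had no second library behind them, in either condition. Only 6 sites lay inside a gene body, and the site closest to a transcription start was 5.4 kb from it, so no listed ER peak lay at the annotated start of any of the 10 genes. For 23 of the 31 sites the nearest protein-coding start was that of the gene itself. For the other 8 it was a neighbour's, though the RET site in intron 6 and the IGF1R site 227.4 kb from the start lay inside the gene itself. Position alone does not show which gene any of the 31 sites serves.

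A peak in both siCtrl libraries was found at 2 of the 31 sites, 1 in the IGFBP4 window and 1 in the RET window, and 2.36% of all sites had one. Such a site was present in 2 of the 10 windows and in 6.4% of protein-coding gene windows. Sites that both siCtrl lists hold and no siCDK12 list holds are called lost. RET carried 1, so 1 of the 2 sites was lost, where 67.5% of the 797 such sites of the genome were. A lost site was present in 1 of the 10 windows and in 5.01% of protein-coding gene windows. No site of the 10 genes had a peak in both siCDK12 libraries, so the count of gained sites, the mirror of lost ones, was 0. Over the genome 42.3% of the 286 sites in both siCDK12 libraries were gained. With counts of this size the lost and gained sites of the 10 genes are a description of single places.

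**Figure D2:**
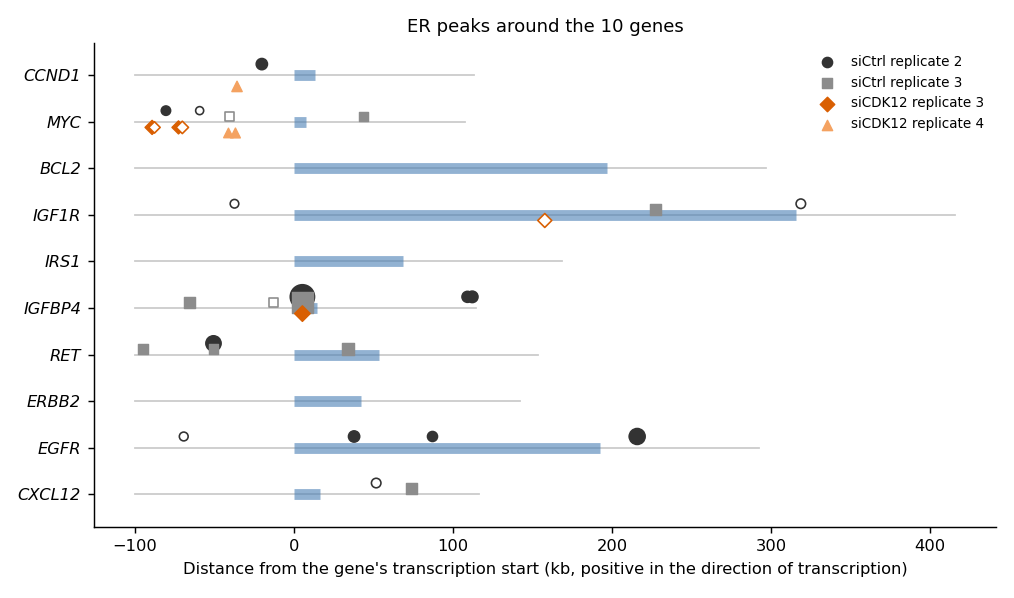
Position of every ER peak as distance from the gene's transcription start in kb (x axis), positive in the direction of transcription, with 1 row per gene, the gene body as a blue bar and the window as a grey line. Marker shape and colour give the library, marker area is proportional to the fold, and open markers have a q-value of 0.05 or higher. Libraries share a place only in IGFBP4 intron 1 and upstream of RET, the MYC markers at 41.1 and 40.5 kb upstream are separate places, and the large EGFR marker covers a second peak just to its left.

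CCND1, the cyclin that opens the G1 phase through CDK4 and CDK6, had 2 peaks, both upstream of the gene and both with a q-value below 0.05. The peak 20.1 kb upstream (chr11:69620987-69621177) was in siCtrl replicate 2, with a fold of 4.96 and a −log10 q of 2.69. The peak 35.7 kb upstream (chr11:69605397-69605552) was in siCDK12 replicate 4, with a fold of 4.07 and a −log10 q of 1.88. Neither place was listed in the other replicate of its condition. The number of peaks put CCND1 at the percentile 50.7 of protein-coding gene windows, ties counted at their midpoint.

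MYC, a transcription factor of cell growth and an early estrogen target, had the most peaks of the 10 genes. There were 2 in siCtrl replicate 2, 2 in siCtrl replicate 3, 4 in siCDK12 replicate 3 and 2 in siCDK12 replicate 4, so MYC was the only gene with peaks in every library. The 10 peaks lay in 10 different places, 9 of them between 89.1 and 36.7 kb upstream and 1 at 43.6 kb downstream of the start, and none in the gene body. Neighbouring peaks of the window were at least 476 bp apart, so no 2 libraries shared a position. MYC supplied 4 of the 6 peaks of siCDK12 replicate 3 and 2 of the 3 of siCDK12 replicate 4. Without the MYC window, an alternative chosen after seeing the data, the libraries held 13, 8, 2 and 1 peaks and the ratio was 0.143 (two-sided exact permutation p = 0.333).

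The MYC peaks were weak for their number. Folds ran from 2.47 to 3.78, pileups from 13 to 19 fragments, and 6 of the 10 peaks had a q-value below 0.05. The strongest was in siCDK12 replicate 3, 89.1 kb upstream, with a fold of 3.78 and a −log10 q of 2.54. The local background at the 10 summits was 2.96 to 5.39 times the genome background of the library (median 3.45), which put MYC at the percentile 98.9 of the protein-coding gene windows with a peak. Outside MYC, the single-library peaks of these genes had a local background of 1.0 to 2.06 times the genome background. At the sites shared between libraries it reached the range of MYC. It was 3.59, 3.67 and 3.93 times at IGFBP4 intron 1 in siCtrl replicates 2 and 3 and siCDK12 replicate 3. Upstream of RET it was 1.52 times in siCtrl replicate 2 and 4.13 times in siCtrl replicate 3. Over the genome, 227 of 14897 windows with a peak had a median background of at least 3 times (1.52%), and they held a median of 12 peaks against 3 in the other windows. Of the 957 windows with at least 10 peaks, 128 had a median background of at least 3 times (13.4%). The density of peaks at MYC, 48.2 per Mb and at the percentile 98.8, thus came with a raised local background in all 4 libraries, and its part in the number of peaks was not tested. Sites 41.1, 40.5 and 36.7 kb upstream lay in intron 1 of 1 of the 5 CASC11 transcripts, and the site 70.1 kb upstream in exon 5 of a long noncoding RNA.

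BCL2, the inhibitor of apoptosis that estrogen raises in breast cells, had no peak in any library, in a window of 396.8 kb. IRS1, the adaptor that carries the signal of the insulin and IGF1 receptors, had none in 268.5 kb. ERBB2, the receptor HER2, had none in 242.5 kb. Windows without a listed peak were not rare, as the share of protein-coding gene windows with a peak shows. That share covers windows of all lengths, and windows as long as that of BCL2 were not looked at apart. No difference between siCtrl and siCDK12 can be read at these 3 genes from the lists.

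**Figure D3:**
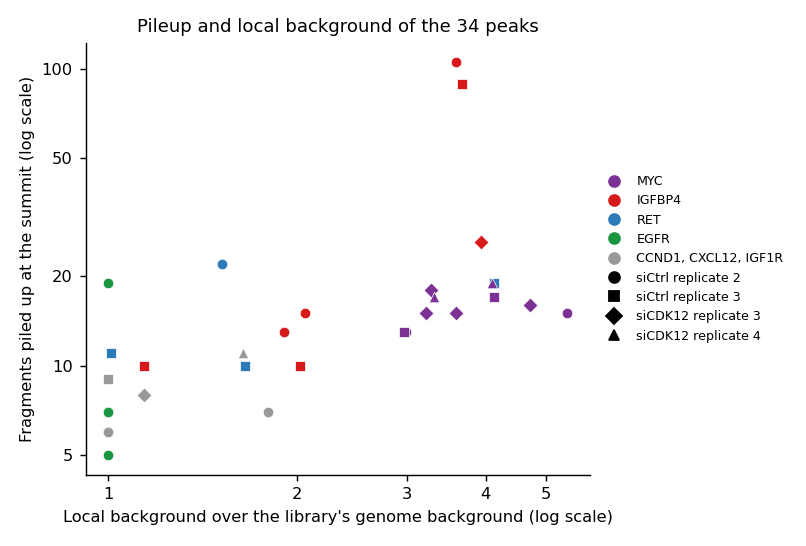
Fragments piled up at the summit (y axis, log scale) against the local background divided by the genome background of the library (x axis, log scale) for the 34 peaks, coloured by gene and with the marker shape for the library. Some peaks with equal values lie over each other at a background of 1. The MYC peaks lie at 13 to 19 fragments and a background of 2.96 to 5.39 times. The RET upstream peak of siCtrl replicate 3 lies among them, at 19 fragments and 4.13 times. The IGFBP4 intron 1 peaks of siCtrl stand apart at 105 and 89 fragments.

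IGFBP4, a binding protein that holds IGF1 and IGF2 away from their receptor, carried the strongest ER site of the 10 genes. The site lay in intron 1 of its single annotated transcript, 5.4 kb from the start (chr17:40448704-40448997), and it was the closest to a start of all 31 sites. Its fold reached 22.8 and 17.2 in siCtrl replicates 2 and 3 but 4.63 in siCDK12 replicate 3, and it was not listed in siCDK12 replicate 4. The pileup was 105 fragments (95% exact Poisson interval 85.9 to 127.0) in siCtrl replicate 2. It was 89 (71.5 to 110.0) in siCtrl replicate 3 and 26 (17 to 38.1) in siCDK12 replicate 3. The siCtrl libraries overlapped each other, and the siCDK12 library lay below both by more than counting error, which is all that these intervals cover. The local background differed much less, at 3.64, 4.24 and 4.83 fragments in the same order. The lower fold in siCDK12 replicate 3 was thus carried mostly by the pileup, with a small part from the higher background.

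The site was also set beside the sites most like it. By mean rank it stood at place 15 of the 797 sites in both siCtrl libraries. Of the 80 strongest of these, 61 had a peak in siCDK12 replicate 3, 48 in siCDK12 replicate 4 and 40 in both. A pattern like that of IGFBP4, a peak in replicate 3 but not in replicate 4, was found at 21 of the 80, and 11 were lost (13.8%). The ratio of the fold in siCDK12 replicate 3 to the mean siCtrl fold was 0.232 at IGFBP4, and the median of the 61 sites with such a peak was 0.339 (range 0.144 to 0.776). The ratio was lower at 8 of them. The 19 sites not listed in that library have no ratio and are not in this median. All these sites qualified by peaks in both siCtrl libraries, and the ratio divides by the siCtrl fold. The choice of sites thus favours ratios below 1 in itself, at IGFBP4 as at the others.

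**Figure D4:**
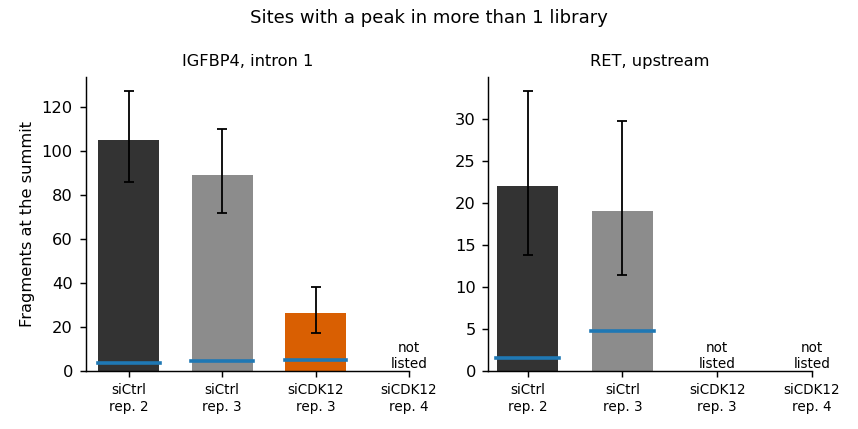
Fragments at the summit (y axis) in each library (x axis) at the IGFBP4 intron 1 site and at the RET upstream site, the only sites of the 10 genes with a peak in more than 1 library. Bars are the pileup solved from the deposited values, error bars its 95% exact Poisson interval and blue lines the local background. At IGFBP4 the pileup was 105, 89 and 26 fragments, and at RET 22 and 19 over backgrounds of 1.54 and 4.78.

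The 4 other sites of the IGFBP4 window were each in a single siCtrl library. Those in siCtrl replicate 3 lay 65.5 and 12.6 kb upstream, with folds of 4.75 and 3.29, and the second had a q-value above 0.05. Those in siCtrl replicate 2 lay 94.9 and 97.9 kb past the end of the gene, with folds of 4.76 and 5.17, and the start of CCR7 was nearer to both. The last lay in exon 3 of CCR7, in its coding sequence, and held the second estrogen response element printed above. In number of peaks IGFBP4 was at the percentile 90.2 of protein-coding gene windows, with 3, 3, 1 and 0 peaks in the libraries.

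IGF1R, the receptor for IGF1 and IGF2, had 4 peaks in 4 places, 2 in siCtrl replicate 2, 1 in siCtrl replicate 3 and 1 in siCDK12 replicate 3. The strongest, and the only one with a q-value below 0.05, was in intron 2, 227.4 kb from the start, in siCtrl replicate 3 (chr15:98875799-98875951, fold 4.64, −log10 q 2.15). The peak of siCDK12 replicate 3 was in the same long intron, 157.8 kb from the start, with a fold of 3.74 and a −log10 q of 1.24. The peaks of siCtrl replicate 2 lay 37.3 kb upstream (fold 2.84) and 2.8 kb past the end of the gene (fold 3.48). None was shared between libraries.

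RET, the receptor for ligands of the GDNF family, carried the only lost site of the 10 genes. The site was intergenic, 50.5 kb upstream (chr10:43026486-43026714). Its fold reached 9.05 in siCtrl replicate 2 but 3.46 in replicate 3, and neither siCDK12 library listed it. The pileups were close, 22 fragments (95% exact Poisson interval 13.8 to 33.3) and 19 (11.4 to 29.7), but the local background was 1.54 in replicate 2 and 4.78 in replicate 3. The folds of the siCtrl libraries thus differed 2.61-fold mostly through their backgrounds, while their pileups agreed within counting error. The site ranked 256 of 15149 and 1847 of 6913 peaks and stood at place 380 of the 797 sites. Of the 80 sites in its bin, when the 797 were cut into bins by mean rank, 57 were lost (71.2%), so loss was the usual outcome for a site of this strength. A flank of 50 kb in place of 100 kb leaves the site out, and a −log10 q of at least 3 leaves it in siCtrl replicate 2 only.

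The 2 other RET peaks were both in siCtrl replicate 3. The peak in intron 6, 33.9 kb from the start (chr10:43110873-43111071), had a fold of 5.53 and a −log10 q of 3.73 and held an AP-1 word. The peak 95 kb upstream had a fold of 3.78 and a −log10 q of 1.55. All 4 peaks of the RET window had a q-value below 0.05, 1 in siCtrl replicate 2 and 3 in siCtrl replicate 3, and siCDK12 had none.

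EGFR, the receptor for EGF and TGFA, had 5 peaks in 5 places, and all were in siCtrl replicate 2. The strongest lay 23.3 kb past the end of the gene (chr7:55234814-55235040), with a fold of 9.93, a −log10 q of 13.7 and a pileup of 19 fragments (95% exact Poisson interval 11.4 to 29.7). It ranked 258 of the 15149 peaks of that library, close to the RET site. The 4 others had folds of 2.98 to 4.96, and 2 of them lay in intron 1, 37.9 and 87.2 kb from the start. The peak 69.2 kb upstream had a q-value above 0.05. The local background of all 5 was at the genome background of the library, unlike at MYC. Since siCtrl replicate 3 had no peak in this window, the siCtrl libraries differed from each other as much as from siCDK12, and no difference between the conditions can be drawn.

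CXCL12, the chemokine that acts on CXCR4 and ACKR3, had 1 peak in each siCtrl library and none in siCDK12, but in different places. In siCtrl replicate 3 the peak lay 57.8 kb past the end of the gene, with a fold of 4.64 and a −log10 q of 2.15. In siCtrl replicate 2 it lay 35.4 kb past the end, with a fold of 3.48 and a −log10 q of 0.96, which is past a q-value of 0.05. Both were at the genome background.

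Sequence words were rare at these sites, as over the genome. An estrogen response element lay within 100 bp of the summit at 2 of the 31 sites and at 1.63% of all sites. Among sites in both siCtrl libraries it was found at 1 of 2 here, IGFBP4 intron 1, where its middle lay 25 bp from the summit, and at 22.5% over the genome. A forkhead word was found at 1 of the 31 sites, the strongest EGFR site, and at 3.26% of all sites. AP-1 words were found at 2 of the 31, the RET sites 50.5 kb upstream and in intron 6, and at 3.91% of all sites. With no mismatch allowed, no site of the 10 genes held an estrogen response element.

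Genes of the same pathways gave a wider view. They were 20 other ligands, receptors, binding proteins, cell cycle genes and survival genes, listed by role and with earlier results of these data known. Summed over their windows, peaks numbered 34 and 20 for siCtrl, against 15 and 13 for siCDK12, a ratio of means of 0.519 (two-sided exact permutation p = 0.333). Over all peaks the ratio was 0.629, in the same direction. The windows of IGFBP2 and IGFBP5 overlap, so these sums count a peak in the shared stretch once for each gene. At least 1 peak was found at 16 of the 20, beside 74.4% of all protein-coding gene windows, and IRS2, ERBB3, GFRA1 and ARTN had none. ERBB4 had 14 peaks, CDK6 11, TGFA 10 and IGF1 9. A site in both siCtrl libraries was found at 2 of the 20, IGF2 and TGFA, and both windows held a lost site. Of all protein-coding gene windows, 6.4% held a site in both siCtrl libraries and 5.01% a lost site.

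IGF2, a ligand of IGF1R, carried 3 sites in both siCtrl libraries, and all 3 were lost. Loss was the more frequent outcome over the genome too, at 67.5% of the 797 sites in both siCtrl libraries. Folds at 10.8 kb upstream were 15.9 and 12.1 in siCtrl replicates 2 and 3, at 35.0 kb upstream 13.8 and 11, and at 11.3 kb upstream 5.46 and 8.76. These sites were stronger than the RET site in both siCtrl libraries, except for the last in replicate 2. The start of TH, a neighbour, was nearer to each of them, and those at 10.8 and 11.3 kb lay inside TH. TGFA, a ligand of EGFR, had 1 lost site 33.6 kb upstream, with folds of 3.97 and 4.19. CDK6, a partner of CCND1, had a site 9.0 kb from its start in siCtrl replicate 3 and siCDK12 replicate 4, with folds of 4.14 and 3.31, and the second peak had a q-value above 0.05. No site of the 20 genes had a peak in all 4 libraries, and none of the 10 genes had one.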

How the data were processed

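ER ChIP-seq was analysed from the peak lists of 4 libraries, 2 siCtrl and 2 siCDK12. The 4 input libraries, the reads and the signal tracks were not analysed here. The authors filtered reads with SOAPnuke, aligned them to GRCh38 with BWA-MEM in the nf-core ChIP-seq framework, and called peaks in each library with MACS2. The deposited fold is a ratio, the summit's pileup over its local background. Per the file columns, significance was deposited as the −log10 p-value and −log10 q-value, and the deposited score is derived from the −log10 p-value and was not used for a result. The stated false discovery rate was 0.05, but the lists hold peaks above it, and these were kept and marked. The authors' test of differential binding with DiffBind and DESeq2 needs read counts and was not repeated.

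Peaks sharing at least 1 bp formed a site. Gene windows were the GENCODE release 44 gene body and 100 kb either side. Pileup and background were solved together from the Poisson p-value and the fold, with 1 added to pileup and background before division, by taking the whole-number pileup whose p-value came nearest. At 100.0% of the peaks of each library, as rounded, it matched the deposited −log10 p-value within 0.02 or 0.2%, whichever was larger. The genome background was the lowest value found at 50 or more peaks. Poisson intervals cover counting error only, and fragments are not known to be independent molecules. For numbers of peaks the two-sided exact permutation test was used over the 4 libraries. Elements were searched within 100 bp of the summit. The rule for named genes was to describe each of the 10 genes, every site of theirs with a peak in at least 2 libraries, and otherwise each gene's strongest peak. The genes, lists and tests were chosen with earlier results of these data known. Alternatives were other filters on q-value or fold, an equal number of peaks, other windows, other site definitions, each library left out and other element settings. The functions were tested on simulated data. The tools were SciPy 1.17.1, pandas 2.3.3, pysam 0.24.0, numpy 2.4.6 and matplotlib 3.10.9 under Python 3.11.15.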

Additional observations from a re-analysis of the deposited data

How the results depend on the processing

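The ratio of peak numbers, 0.36, stayed below 1 under all 13 alternatives, from 0 at a fold of at least 5 to 0.529 with an equal number of peaks. With each library left out in turn it was 0.24 to 0.48. The number of sites in both siCtrl libraries fell from 2 to 1 at a −log10 q of at least 3 or 5, at a fold of at least 5, in the gene body alone, and with 10 or 50 kb either side. Lost sites fell from 1 to 0 under the same settings except the fold of at least 5, where the count stayed at 1 but the site was IGFBP4 intron 1 in place of RET, its siCDK12 fold of 4.63 being below 5. Fewer peaks or shorter windows account for these. Leaving out a library leaves its condition with 1, so that a site counts on 1 list alone. Sites in siCtrl then numbered 2 to 15 (10 without siCtrl replicate 2 and 15 without siCtrl replicate 3), lost sites 1 to 14 (9 and 14 without these, and 2 without siCDK12 replicate 3), and gained sites 0 to 5 (3 without siCDK12 replicate 3 and 5 without siCDK12 replicate 4). Estrogen response elements numbered 0 with no mismatch and 2 within 50 bp. Of 57 values under alternatives, 38 kept their direction or, for counts, stayed within 1.5 times the main count, and 19 moved. The 38 include 12 counts of gained sites, and stricter filters or shorter windows could not raise that count from 0. Sites in both siCtrl libraries and lost sites each moved under 8 of 14 alternatives. Only the 13 values of the ratio have a direction that could change, and 0 of them changed it. No paired analysis was possible because siCtrl and siCDK12 have 1 replicate number in common, 3. Without read numbers, a place not listed cannot be told apart from a place too shallow to be called.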
